A study of Mus musculus with 9 samples.

Results

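The genes described here are the receptors, enzymes and targets of steroid and thyroid hormone action in the adult male mouse submandibular gland (SMG), one of the major salivary glands. There are 9 of them among the 48733 rows of the count table: *Esr1* (estrogen receptor alpha), *Nr3c1* (glucocorticoid receptor), *Nr3c2* (mineralocorticoid receptor), *Thra* and *Thrb* (thyroid hormone receptors alpha and beta), *Srd5a1* and *Srd5a2* (steroid 5-alpha reductases), and *Fkbp5* and *Tsc22d3* (targets of the glucocorticoid receptor). They were chosen by name, by what they do in hormone signaling, with earlier results of these data known. Of the 9, 8 passed the filter on low counts, and *Srd5a2*, with 1 read in all, did not.

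RNA from the SMGs of 4 wildtype (WT) and 5 *Hs3st3a1;Hs3st3b1* double knockout (DKO) male mice was sequenced, and the question asked of each gene was whether its RNA level differed between the genotypes. The DKO mice lack a pair of enzymes that place sulfate on the 3-O position of heparan sulfate. Their *Hs3st3a1* carries a frameshift deletion in exon 1 made with zinc finger nucleases, on a chromosome whose *Hs3st3b1* allele holds a LacZ cassette, and all mice were adults of a C57BL/6 background with WT littermates as controls. Both losses are in every cell of the body, and which founder line the sequenced mice came from is not given in the sources used here. No hormone was given or measured, and neither the age in weeks nor the hour of collection is given in those sources. No source used here says how the glands were collected or batched, so the p-values measure the spread between these libraries, part of which may be technical.

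Nuclear hormone receptors are transcription factors that a small lipid-soluble hormone switches on. Glucocorticoids bind the receptor made from *Nr3c1*, which then leaves its chaperones, enters the nucleus and activates genes such as *Fkbp5*, whose protein feeds back on the receptor complex, and *Tsc22d3*, also called GILZ, which mediates anti-inflammatory effects. The 5-alpha reductases convert testosterone to the more potent dihydrotestosterone. In the male mouse SMG the granular convoluted ducts, which store growth factors and kallikreins, are known to grow and be maintained under androgens together with thyroid hormone and glucocorticoids.

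In short, 0 of the 8 genes tested passed the threshold between DKO and WT, where 0.629% of all 13842 genes tested did. The lowest fold changes were those of *Esr1* and *Srd5a1*, whose groups overlapped. Between the lowest and the highest of the 9 libraries, the span was 1.35-fold for *Nr3c1* and 1.37-fold for *Thrb*, 1.88-fold and 1.96-fold for *Srd5a1* and *Thra*, 2.18-fold and 2.19-fold for *Fkbp5* and *Nr3c2*, 2.72-fold for *Tsc22d3*, and 4.38-fold for *Esr1*, the tested gene of fewest reads. Below, ± after a CPM value is the SD over libraries (n = 4 for WT, n = 5 for DKO), and ± after a log2 fold change is its standard error (SE).

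Total counts were 20653492 to 37870519 in WT and 17053747 to 34683690 in DKO, and the 20 most abundant genes took 52.9% to 58.7% of WT counts and 59.4% to 70.3% of DKO counts. *Hs3st3a1* was at 0.115 to 0.386 CPM (a gene's reads divided by the library size after TMM scaling between libraries by edgeR) in WT and had no read in the 5 DKO libraries, and *Hs3st3b1* was at 2.99 to 5.37 CPM in WT and 0.508 to 1.85 CPM in DKO. Defining markers of the gland were abundant, such as the acinar *Mucl2* (145770 ± 28897 CPM in WT) and the granular duct kallikrein *Klk1b26* (35179 ± 11289 CPM). The library DKO 1 stood apart by the parotid genes *Bpifa2* (7431 CPM, against 4.42 to 79.1 CPM in the other 8) and *Amy1* (637.5 CPM, against 7.10 to 25.5 CPM). WT 3, DKO 3 and DKO 5 stood apart by circadian clock genes, with *Arntl* at 0.906, 2.61 and 1.02 CPM, against 15.4 to 35.3 CPM in the other 6. Leaving out one of these 4 libraries, or all 3 of lowest *Arntl* (a choice made after seeing the data), is reported beside each of the 8 genes whose log2 fold change it moved by over 1.5 times or turned in sign. Cell-type markers differed between the genotypes as well: of 14 granular duct markers, 14 had a fold change below 1 (median log2 fold change −1.92, summed level 64924 to 161630 CPM in WT and 10105 to 51943 CPM in DKO), and of 8 acinar markers 8 had one above 1 (median 0.65). In the granular duct list edgeR's quasi-likelihood test called 0 at an adjusted p under 0.05, while 13 were lower at an unadjusted p under 0.05, 13 had all DKO libraries below WT and DESeq2 called 13 lower. In the acinar list edgeR called 0, with 6 higher unadjusted, and DESeq2 called 4 higher. Over all genes tested, edgeR called 0.462% lower, 7.60% were lower unadjusted, and 3.51% had all DKO libraries below WT. DESeq2 called 2.74% of its genes lower. The shares of higher genes were 0.166% called by edgeR, 6.89% unadjusted and 1.81% called by DESeq2. Of 8 myoepithelial markers tested, 8 were below 1 (median −1.07), with *Tagln*, *Myh11* and *Mylk* past the threshold, and 6 of 6 fibroblast markers were below 1 (median −0.72). Of 6 skeletal muscle markers 3 were tested, and they differed in sign. The actin gene *Acta1* was past the threshold (log2 fold change −3.65). *Mylpf* (−0.78) and *Ckm* (0.61) were not. Of 8 leukocyte markers 4 were tested (median −0.28), and the lymphocyte genes *Cd3e*, *Cd3d*, *Cd79a* and *Ms4a1* did not pass the filter. Intercalated and striated duct markers went both ways, with 5 of 11 above 1 and 6 below (median −0.01). Of 6 endothelial markers, 5 were above 1 and 1 below (median 0.27). Sublingual and parotid markers numbered 10, and the 6 tested were all above 1 (median 1.87). Of 6 adipocyte markers 1 was tested (0.46). In these 4 lists edgeR called 0. In RNA from whole glands, fewer cells of a type and less RNA per cell cannot be told apart, and the part that cell composition has in the values below was not tested.

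The promoters of the glucocorticoid targets are shown because the results turn on how these genes vary between libraries. They are RefSeq windows on GRCm38.p6, from 250 bases before to 50 bases after an annotated start, written 5′ to 3′ on the strand of the gene. The capitals in *Fkbp5* mark an E-box, CACGTG, the element that clock factors bind, which starts 169 bases before the start site. In *Tsc22d3* they mark a half-site of the glucocorticoid response element, AGAACA, read on the opposite strand as TGTTCT, which begins 185 bases before the start site of its most upstream annotated window. *Tsc22d3* has 3 windows, and the other 2, which held none of the motifs searched, are not printed. A match describes letters in a window and is no evidence of binding.
*Fkbp5*, chr17:28486100-28486399, minus strand: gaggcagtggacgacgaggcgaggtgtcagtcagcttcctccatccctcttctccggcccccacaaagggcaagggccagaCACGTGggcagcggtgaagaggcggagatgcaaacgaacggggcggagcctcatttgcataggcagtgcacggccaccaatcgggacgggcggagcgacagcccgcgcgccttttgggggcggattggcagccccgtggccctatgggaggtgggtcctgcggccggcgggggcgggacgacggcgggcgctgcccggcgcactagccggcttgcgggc
*Tsc22d3*, chrX:140600473-140600772, minus strand: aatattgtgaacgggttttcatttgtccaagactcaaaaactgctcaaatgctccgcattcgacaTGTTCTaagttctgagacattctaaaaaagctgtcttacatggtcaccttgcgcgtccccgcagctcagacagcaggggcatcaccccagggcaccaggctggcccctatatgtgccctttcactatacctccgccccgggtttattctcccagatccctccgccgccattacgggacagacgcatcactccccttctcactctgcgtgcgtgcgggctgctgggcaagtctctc

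RefSeq windows were found for 7 of the 9 genes, 11 windows in all, and both strands were searched. The half-site AGAACA was in 2 of the 11, those of *Tsc22d3* and of *Thrb*, against 19.0% of all 32851 mouse windows. CACGTG was also in 2, those of *Fkbp5* and *Thrb*, against 7.15% of all windows. The half-site AGGTCA of thyroid hormone and related receptors was in 1 window of *Thrb*, against 16.3%. None of the 11 windows held the full glucocorticoid palindrome (AGAACA and TGTTCT with 3 bases between, 0.00913% of all windows, each of which also holds the half-site), the direct repeat of AGGTCA with 4 bases between (0.0152%), or the estrogen response element (GGTCA and TGACC with 3 bases between, 0.0700%).

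Levels of different genes were compared as CPM per kilobase of merged exons in the GENCODE M21 annotation (GRCm38). *Thrb* stood highest at a mean of 19.7 CPM per kb over the 9 libraries (range 16.5 to 22.7), above every other gene of the set in each library. *Tsc22d3* (6.40 CPM per kb, range 3.48 to 9.47) and *Fkbp5* (5.23, range 3.65 to 7.97) followed, and their ranges overlapped. *Thra* came next at 2.63 CPM per kb (range 1.88 to 3.69), whose highest value reached into the range of *Fkbp5*, although *Fkbp5* was above *Thra* in 9 of 9 libraries. *Srd5a1* stood at 1.32 CPM per kb (range 0.916 to 1.73), apart from *Thra* above it and *Nr3c1* below it. The steroid receptors were lowest. *Nr3c1* was at 0.673 CPM per kb (range 0.590 to 0.796) and *Nr3c2* at 0.50 (range 0.276 to 0.604), overlapping but with *Nr3c1* higher in 9 of 9 libraries, and *Esr1* was at 0.0843 (range 0.0369 to 0.162), below all other genes tested.

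**Figure D1:**
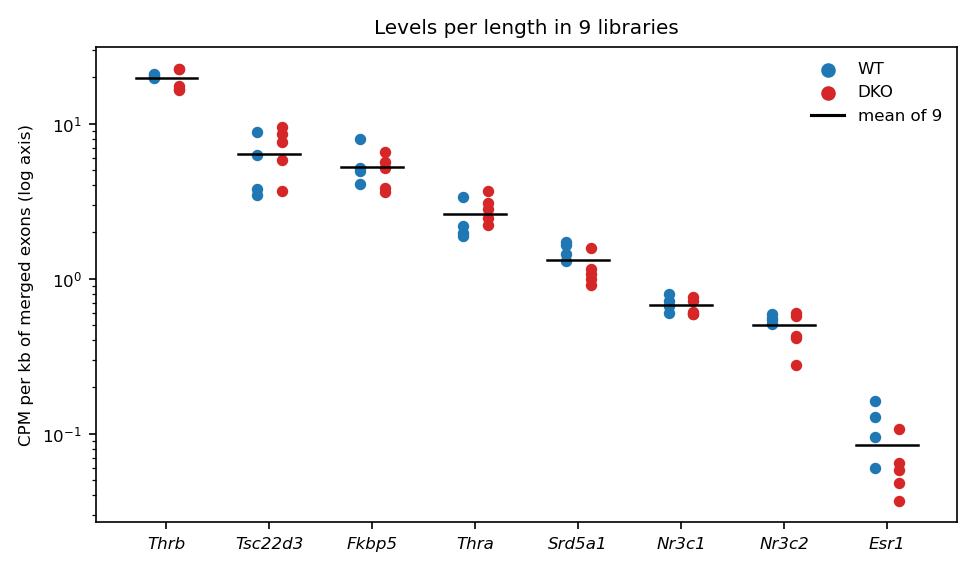
Levels of the 8 genes tested, in CPM per kb of merged exons on a log axis. Each point is 1 library (blue WT, red DKO) and the black line is the mean of 9. *Thrb* lies at 16.5 to 22.7 and *Esr1* at 0.0369 to 0.162, and neighboring genes overlap for *Tsc22d3* with *Fkbp5*, *Fkbp5* with *Thra*, and *Nr3c1* with *Nr3c2*.

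*Thrb*, the receptor that mediates much of thyroid hormone feedback and sensory development, lies on chromosome 14 (plus strand, bases 17660261 to 18038090). Its WT libraries lay close together, at 154, 149, 155 and 147 CPM. The DKO libraries were at 122, 168, 124, 166 and 130 CPM, so 3 of them fell below all WT libraries and 2 above. The difference was within this spread, with a log2 fold change of −0.09 ± 0.12 (SE, 95% confidence interval −0.36 to 0.18, adjusted p = 0.806 by edgeR's quasi-likelihood test). It was −0.04 without DKO 1 or DKO 3, −0.06 without DKO 5, and 0.02 without the 3 libraries of lowest *Arntl*. The SD of the DKO libraries (22.9 CPM) was larger than that of the WT libraries (3.66 CPM), which was not tested.

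*Thra*, the widely expressed receptor of thyroid hormone, lies on chromosome 11 (plus strand, bases 98740638 to 98769006). It was at 10.04, 15.6, 8.68 and 9.06 CPM in WT and 17.0, 14.2, 11.4, 13.0 and 10.3 CPM in DKO. The WT 2 library was inside the DKO range and 3 of the 4 WT libraries lay below all 5 DKO libraries. The log2 fold change was 0.29 ± 0.20 (SE, 95% confidence interval −0.14 to 0.72, adjusted p = 0.571), and it was 0.52 without WT 2 and 0.18 without DKO 1. The 3′ end of *Thra* shares 263 bases, from 98768157 to 98768419, with the clock gene *Nr1d1* on the opposite strand, 5.70% of its merged exons. As the libraries were unstranded, reads there cannot be assigned to one gene, and *Nr1d1* itself was at 6.61 to 51.0 CPM in WT and 9.76 to 81.9 CPM in DKO. The ratio of *Thrb* to *Thra* per kb averaged 9.18 ± 2.25 over the WT libraries and 6.88 ± 1.42 over the DKO libraries (± SD), a difference with p = 0.143 by a two-sided exact permutation test.

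*Nr3c1* lies on chromosome 18 (minus strand, bases 39410545 to 39519421). It was among the steadiest of the set, at 5.13, 6.12, 5.50 and 4.59 CPM in WT and 4.57, 5.51, 4.54, 5.89 and 4.72 CPM in DKO. The groups covered almost the same range, with 1.35-fold between the highest and the lowest of the 9 libraries. Its log2 fold change was −0.08 ± 0.14 (SE, adjusted p = 0.858), and the 95% confidence interval, −0.39 to 0.23, spans levels from 0.761-fold to 1.17-fold of WT. The log2 fold change was −0.04 without DKO 1 or DKO 3, and 0.00753 without the 3 libraries of lowest *Arntl*.

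*Nr3c2*, which binds aldosterone and controls sodium uptake in salivary ducts and kidney, lies on chromosome 8 (plus strand, bases 76899442 to 77245012). The WT libraries were at 3.30, 3.82, 3.62 and 3.52 CPM, and the DKO libraries at 3.72, 2.76, 1.79, 3.91 and 2.68 CPM. Thus 3 DKO libraries were below all WT libraries, DKO 4 was above them and DKO 1 among them. The log2 fold change of −0.25 ± 0.22 (SE, 95% confidence interval −0.73 to 0.22) was not past the threshold (adjusted p = 0.665), and it was −0.12 without DKO 3 and −0.03 without the 3 libraries of lowest *Arntl*. Near its start it shares 247 bases with *Gm10649*, a noncoding gene of the opposite strand with at most 0.237 CPM in any library.

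*Esr1* lies on chromosome 10 (plus strand, bases 4611593 to 5005614) and had the lowest level of the genes tested. The WT libraries were at 1.74, 1.3, 2.21 and 0.816 CPM, from 19 to 100 reads. The DKO libraries were at 0.879, 0.658, 0.504, 1.46 and 0.798 CPM, from 11 to 37 reads. Of the 5 DKO libraries, 3 were below all WT libraries, while DKO 1 lay just above WT 4, and DKO 4 above both WT 2 and WT 4. With a log2 fold change of −0.82 ± 0.36 (SE, 95% confidence interval −1.60 to −0.04) *Esr1* was lowest in fold of the set, but it did not pass the threshold over all genes (adjusted p = 0.316, range over 19 alternatives 0.124 to 0.842). The exact permutation test on log2(CPM + 1), two-sided and with a smallest possible p of 0.00794 for groups of 4 and 5, gave p = 0.0794. Left-out libraries moved the log2 fold change from −1.10 (without DKO 4) to −0.57 (without WT 3), and it was −0.36 without the 3 libraries of lowest *Arntl*.

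*Srd5a1*, the 5-alpha reductase found in many tissues, lies on chromosome 13 (minus strand, bases 69573449 to 69611442). It was at 4.196, 4.78, 3.78 and 5.02 CPM in WT and at 2.67, 3.37, 2.89, 4.62 and 3.12 CPM in DKO. All but 1 of the DKO libraries were below all WT libraries, and DKO 4 lay within the WT range. The log2 fold change was −0.41 ± 0.19 (SE, 95% confidence interval −0.82 to −0.00342), the adjusted p was 0.340 (range over 19 alternatives 0.113 to 0.659), and the exact permutation p was 0.0476. That p rose above 0.05 when any library other than DKO 4 was left out (0.0714 to 0.107) and was 0.0286 without DKO 4. The 5′ end of *Srd5a1* shares 476 bases, 16.4% of its merged exons, with the same-strand transcript *Gm17108*, which had at most 0.145 CPM.

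*Srd5a2*, the 5-alpha reductase of prostate and genital tract, lies on chromosome 17 (minus strand, bases 74016955 to 74047916). It had 1 read in DKO 1 and none in the other 8 libraries. A count of 0 allows up to 3 reads in a library, which is 0.0663 to 0.218 CPM at these depths, a limit that covers counting error only. No fold change can be given. Between *Srd5a1* and *Srd5a2*, the 5-alpha reductases looked at here, *Srd5a1* was thus the one detected. *Srd5a2* was not detectable at this depth beyond that read.

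**Figure D2:**
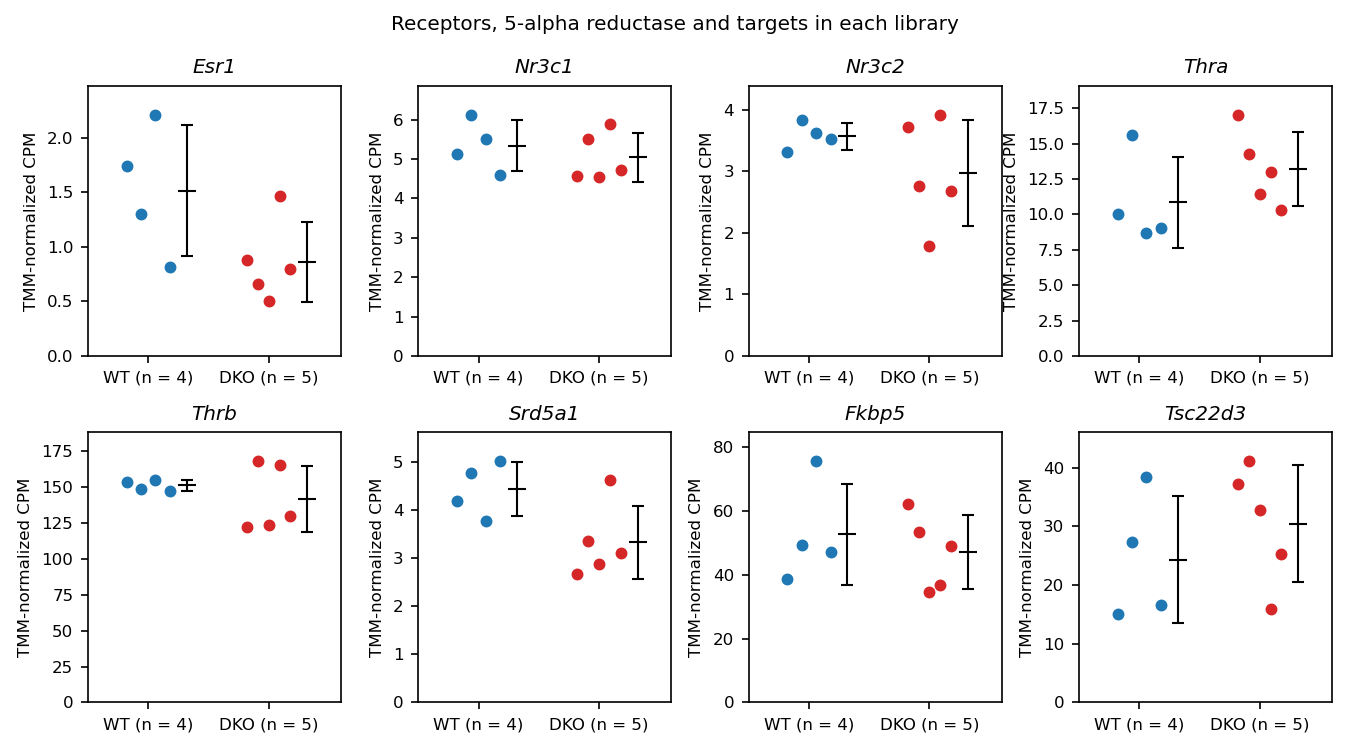
TMM-normalized CPM of the 8 genes tested in each library, with the vertical axis from 0. Points are libraries (blue WT, red DKO), and the black bar gives the mean and SD of each group. The groups overlap for all 8 genes, and 4 of the 5 DKO points of *Srd5a1* lie below the lowest WT point at 3.78 CPM.

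*Fkbp5* lies on chromosome 17 (minus strand, bases 28399094 to 28517527). It was at 38.7, 49.2, 75.5 and 47.0 CPM in WT and 62.0, 53.4, 34.6, 36.6 and 48.9 CPM in DKO. The highest library was WT 3 and the lowest DKO 3, a 2.18-fold span, and the groups overlapped. Its log2 fold change was −0.16 ± 0.21 (SE, 95% confidence interval −0.63 to 0.30, adjusted p = 0.801), and the sign rested on 1 library, since it was 0.07 without WT 3. It was −0.28 without DKO 1 or WT 1, −0.07 without DKO 3, −0.08 without DKO 4, and 0.17 when the libraries of lowest *Arntl* (WT 3, DKO 3 and DKO 5) were left out.

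*Tsc22d3* lies on chromosome X (minus strand, bases 140539528 to 140600659). It was at 15.1, 27.4, 38.4 and 16.6 CPM in WT and at 37.3, 41.1, 32.9, 16.0 and 25.2 CPM in DKO. Both genotypes held libraries near 16 CPM and libraries near 40 CPM, with 2.72-fold between the lowest and the highest. The log2 fold change was 0.32 ± 0.31 (SE, 95% confidence interval −0.35 to 0.99, adjusted p = 0.709), and it was −0.01 with library size alone in place of TMM, a setting that moved the median of all genes by −0.29. Single libraries moved it in both directions, to 0.15 without WT 1, 0.17 without WT 4, 0.19 without DKO 2, 0.48 without DKO 4 and 0.63 without WT 3, and it was 0.67 without the 3 libraries of lowest *Arntl*. The SD of log2(CPM + 1) within genotypes was 0.561 for *Tsc22d3*, larger than in 97.1% of the 13842 genes tested, and 0.373 for *Fkbp5*, larger than in 88.9%. For *Nr3c1* it was 0.145, larger than in 18.5%, a value that also reflects its lower level on this scale.

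The libraries of lowest *Tsc22d3* were WT 1, WT 4 and DKO 4. These were also the lowest 3 of the 9 for *Per1*, a clock gene that glucocorticoids induce (1.43, 2.02 and 1.70 CPM, against 2.52 to 5.39 CPM in the other 6), for *Nr1d1*, a clock repressor (6.61, 16.6 and 9.76 CPM, against 28.1 to 81.9 CPM), and for *Thrsp*, a gene induced by thyroid hormone (4.51, 6.05 and 4.74 CPM, against 7.69 to 13.5 CPM). These genes were set beside *Tsc22d3* after their values were seen, and *Thrsp* is among the 3 genes most correlated with it, so its match follows from that choice. Other glucocorticoid-induced genes of the lists had a different order. *Dusp1* was at 3.84 and 3.48 CPM in WT 1 and WT 4, above every other library but DKO 2, and lowest in DKO 4 (0.632 CPM). *Klf9* was lowest in WT 1 (12.01 CPM) but at 21.03 CPM in WT 4. *Zbtb16* had only 3, 2 and 4 reads in DKO 3, DKO 5 and WT 1 (0.138, 0.145 and 0.179 CPM), too few to order these libraries. The libraries of lowest *Tsc22d3* were not those set apart by *Arntl* and *Per3*. WT 3, DKO 3 and DKO 5 had *Per3* at 201, 297 and 390 CPM, against 31.6 to 68.4 CPM in the other 6. *Fkbp5* was highest in one of these (WT 3) and lowest in another (DKO 3). The hour at which each gland was taken, the hormone level of each mouse and its handling were not given, and their part in these values was not tested.

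**Figure D3:**
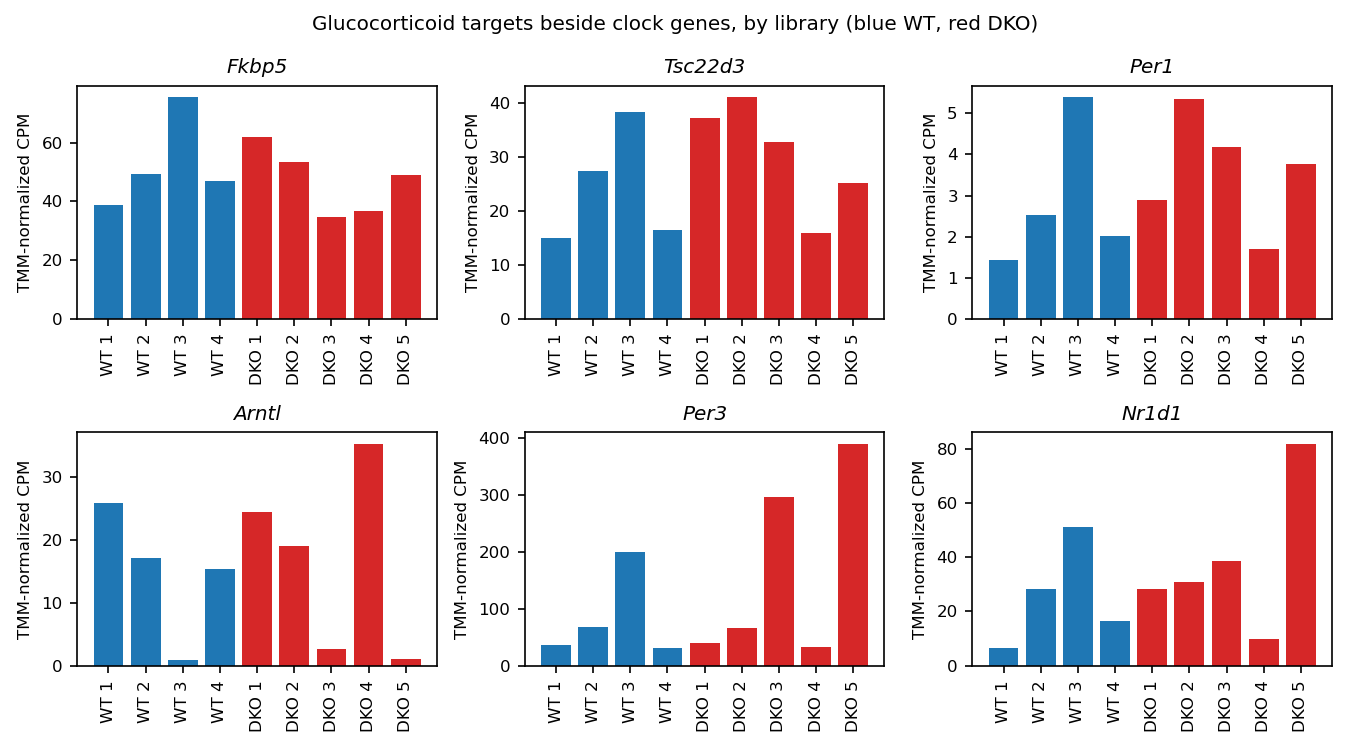
TMM-normalized CPM of *Fkbp5* and *Tsc22d3* and of the clock genes *Per1*, *Arntl*, *Per3* and *Nr1d1*, 1 bar per library from 0 (blue WT, red DKO). *Tsc22d3*, *Per1* and *Nr1d1* are lowest in WT 1, WT 4 and DKO 4, whereas *Arntl* is lowest and *Per3* highest in WT 3, DKO 3 and DKO 5.

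Whether the receptor and its targets varied together was asked over the 9 libraries on log2(CPM + 1), with exact permutation tests and adjustment over the 3 pairs. For *Fkbp5* and *Tsc22d3* Pearson's r was 0.617 (permutation p = 0.0812, adjusted 0.244) and Spearman's rho was 0.683 (permutation p = 0.0503, adjusted 0.151), which did not pass. Without WT 3 and DKO 3, the libraries farthest from the median of *Fkbp5*, r was 0.872, and with values centred within genotype it was 0.744 (0.912 in WT and 0.579 in DKO). Among the 6 libraries with high *Arntl*, a division made after seeing the data, r was 0.872 (permutation p = 0.0167, adjusted 0.05001) and rho 0.886 (permutation p = 0.0333, adjusted 0.100). Neither adjusted p was under 0.05. As these libraries were picked from the same data, the p-values are no independent test of the relation. For *Nr3c1* no relation passed either, with *Fkbp5* (r = 0.0738, permutation p = 0.849, adjusted 0.912, rho = 0.2, permutation p = 0.613, adjusted 0.912) or with *Tsc22d3* (r = −0.0429, permutation p = 0.912, adjusted 0.912, rho = −0.05, permutation p = 0.912, adjusted 0.912). Without WT 2 and DKO 4, the farthest from the median of *Nr3c1*, these were 0.445 and 0.278. Over the 6 high-*Arntl* libraries they were −0.405 and −0.00354 (permutation p = 0.433 and 0.994). The ratio of *Fkbp5* to *Tsc22d3* per kb averaged 1.05 ± 0.23 over the WT libraries and 0.756 ± 0.226 over the DKO libraries (± SD), with p = 0.103 by the two-sided exact permutation test.

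Over the set, edgeR called 0 of 8 genes at the threshold of 0.05 on the adjusted p, where 0.629% of all 13842 genes did (0.166% higher and 0.462% lower in DKO). DESeq2's Wald test, the test the study names, also called 0 of 8, where it called 4.55% of 13563 genes (1.81% higher and 2.74% lower). At an unadjusted p under 0.05 edgeR counted 2 of 8, *Esr1* and *Srd5a1*, both lower in DKO, against 14.5% of all genes (6.89% higher and 7.60% lower). In 0 of 8 were the genotypes free of overlap, against 2.49% of genes with all DKO libraries higher and 3.51% with all lower. The median log2 fold change of the 8 was −0.13, beside 0.01 over all genes tested. In this fit a 2-fold change in either direction lies outside the 95% confidence intervals of *Nr3c1*, *Nr3c2*, *Thra*, *Thrb*, *Srd5a1* and *Fkbp5*. For *Esr1*, whose interval runs from 0.330-fold to 0.972-fold, a 2-fold fall lies inside and a 2-fold rise outside. The interval of *Tsc22d3* ends at 1.99-fold, just short of 2-fold, and its log2 fold change was 0.63 ± 0.30 (SE) without WT 3. A 2-fold rise of *Tsc22d3* is therefore not excluded.

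**Figure D4:**
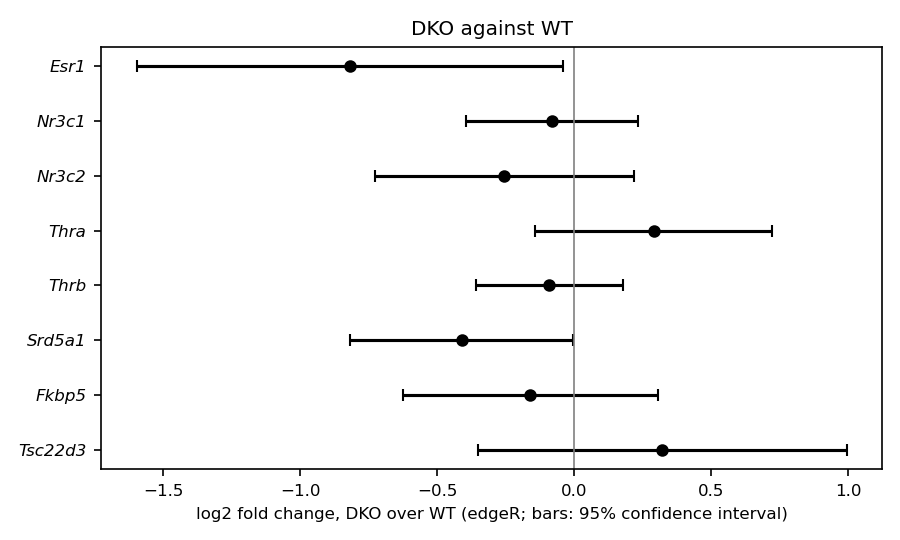
Log2 fold changes of the 8 genes tested, DKO over WT, from edgeR's quasi-likelihood fit, with bars for the 95% confidence interval and a grey line at 0. The intervals of *Esr1* and *Srd5a1* end below 0 (at −0.04 and −0.00342) before adjustment over all genes, and those of the other 6 span 0.

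Of 43 other nuclear receptors, 29 were tested and edgeR called 0 in either direction (median log2 fold change −0.04), with 3 higher and 2 lower at an unadjusted p under 0.05. *Rxrg*, a retinoid X receptor and thus a partner of the thyroid hormone receptors, was at 1.23 ± 0.42 CPM in WT and 2.87 ± 0.73 CPM in DKO with no overlap (log2 fold change 1.21 ± 0.28, SE, adjusted p = 0.0650). *Nr4a1*, an immediate early orphan receptor, was at 35.9 ± 6.3 and 54.7 ± 7.7 CPM without overlap (0.60 ± 0.15, adjusted p = 0.0702). DESeq2 called both as higher and no other gene of the list. *Esrrg*, an estrogen-related orphan receptor, was at 41.6 ± 6.2 and 25.4 ± 8.7 CPM, also without overlap (adjusted p = 0.207). *Nr1h2* (liver X receptor beta) and *Nr1d1*, the most abundant of the list besides *Nr4a1* and *Esrrg*, had log2 fold changes of −0.04 and 0.54 (adjusted p = 0.931 and 0.744).

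The chaperones that hold steroid receptors ready for hormone, with coregulators, gave 29 genes tested of 30, of which 0 were called (median log2 fold change −0.09, 1 higher and 4 lower unadjusted). *Dnaja1*, an HSP40 cochaperone, was at 106 ± 16 CPM in WT and 75.7 ± 7.4 CPM in DKO (adjusted p = 0.0833, called by DESeq2). *Ptges3* (p23), which stabilizes the receptor complex with HSP90, had a log2 fold change of −0.38 (adjusted p = 0.210). The HSP40 member *Dnajb1* was at −0.31 (adjusted p = 0.235) with all DKO libraries below WT. *Hsp90ab1* and *Hspa8*, the most abundant, were at −0.20 and −0.09 (adjusted p = 0.482 and 0.910).

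Of 40 steroid metabolism enzymes, 12 passed the filter and 0 were called by edgeR or by DESeq2 (median log2 fold change −0.13, 1 higher and 1 lower unadjusted). Genes of hormone synthesis such as *Cyp11b1*, *Cyp11b2* and *Cyp19a1* had no read in any library. *Sult1e1*, which inactivates estrogens by sulfation, was at 52.5, 51.5, 45.8 and 45.2 CPM in WT and at 16.4, 9.34, 2.84, 51.0 and 13.1 CPM in DKO. Thus 4 of 5 DKO libraries were below all WT libraries and DKO 4 among them (log2 fold change −1.39 ± 0.56, SE, adjusted p = 0.272, and −2.22 without DKO 4). *Hsd11b1*, which regenerates active glucocorticoid inside cells, was at 172, 95.7, 69.7 and 44.8 CPM in WT and 49.95, 68.7, 38.9, 71.1 and 80.1 CPM in DKO, with WT 1 far above the rest (log2 fold change −0.63 ± 0.33, SE, adjusted p = 0.423, and −0.18 without WT 1). *H6pd*, which supplies that enzyme with cofactor, was at 0.33 (adjusted p = 0.340). *Hsd17b4* and *Hsd17b10*, 17-beta-hydroxysteroid dehydrogenases with roles in lipid breakdown, were at −0.20 and −0.05 (adjusted p = 0.434 and 0.899).

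Of 18 genes of thyroid hormone transport, binding, synthesis and deiodination, 10 were tested and 0 were called (median log2 fold change −0.10), while 3 were higher and 2 lower unadjusted and DESeq2 called 3 higher and 1 lower. *Slc7a5*, the light chain of an amino acid transporter that also carries thyroid hormone, was at 5.04, 10.3, 5.88 and 6.35 CPM in WT and 19.1, 18.8, 24.1, 6.68 and 20.7 CPM in DKO. DKO 4 was within the WT range and the other 4 DKO libraries above it (log2 fold change 1.37 ± 0.33, SE, adjusted p = 0.0670). Its heavy chain *Slc3a2* had a log2 fold change of 0.58 (adjusted p = 0.108). *Ttr* (transthyretin, a thyroid hormone carrier) was at 26.2 ± 5.8 and 45.3 ± 10.98 CPM without overlap (0.79 ± 0.20, adjusted p = 0.0778), and *Duox2*, a hydrogen peroxide-generating oxidase, at 12.1 ± 2.6 and 6.96 ± 1.67 CPM without overlap (−0.79 ± 0.19, adjusted p = 0.0776).

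Of 33 further glucocorticoid targets, 28 were tested, 1 was called lower and 0 higher, and the median log2 fold change was 0.16, with 19 of 28 above 0. The called gene was *Lcn2* (lipocalin 2, an iron-scavenging defence protein), at 24.3, 6.08, 36.6 and 16.8 CPM in WT and 4.69, 3.25, 1.79, 5.10 and 2.90 CPM in DKO, with all DKO libraries below WT. Its log2 fold change was −2.55 ± 0.44 (SE, adjusted p = 0.0478), and it passed under 7 of 19 alternatives. The call was lost without any single library other than WT 2 and DKO 4 (adjusted p = 0.0522 to 0.198). *Tsc22d1*, a paralog of *Tsc22d3*, was at 172 ± 51 CPM in WT and 85.9 ± 21.1 CPM in DKO without overlap (−0.999 ± 0.222, adjusted p = 0.0570), so that its fold change had the opposite sign to that of *Tsc22d3*. *Sgk1*, the serum- and glucocorticoid-induced kinase, was at 77.6, 51.1, 136 and 56.0 CPM in WT and 36.7, 35.7, 20.7, 43.7 and 32.6 CPM in DKO, again without overlap (−1.24 ± 0.28, adjusted p = 0.0619). DESeq2 called all 3 of these as lower. *Klf15* was at 0.53 (adjusted p = 0.187), and the abundant targets *Anxa1* and *Mt1* were at 0.14 and −0.03 (adjusted p = 0.757 and 0.954).

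Mineralocorticoid targets numbered 21, of which 18 were tested and 0 called (median log2 fold change 0.12, 2 higher and 5 lower unadjusted), and *Sgk1* is one of these too. *Ndrg2*, an aldosterone-induced gene, was at 110 ± 16 and 74.6 ± 8.1 CPM without overlap (−0.56 ± 0.12, adjusted p = 0.0568). *Scnn1b*, a subunit of the epithelial sodium channel, was at 196 ± 22 and 114 ± 36 CPM without overlap (−0.78 ± 0.23, adjusted p = 0.126). DESeq2 called *Sgk1*, *Ndrg2* and *Scnn1b* as lower. *Atp1b1*, the beta subunit of the sodium pump, had a log2 fold change of 0.18 (adjusted p = 0.458).

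For thyroid hormone targets, 17 of 23 were tested and 0 called (median log2 fold change 0.16, 1 higher and 3 lower unadjusted). The mitochondrial glycerol phosphate dehydrogenase *Gpd2* was at −0.50 ± 0.15 (adjusted p = 0.127), the glucose transporter *Slc2a4* (GLUT4) at −0.47 ± 0.14 (adjusted p = 0.129) and the coactivator *Ppargc1a* at 0.52 ± 0.19 (adjusted p = 0.237). *Ucp2* and *Cpt1a*, the most abundant, were at 0.16 and 0.19 (adjusted p = 0.807 and 0.652). Of 21 estrogen targets, 12 were tested and 0 called (median −0.29, 0 higher and 4 lower unadjusted). *Greb1*, a coactivator of estrogen receptor alpha, was at 0.930 ± 0.226 CPM in WT and 0.319 ± 0.211 CPM in DKO without overlap (−1.45 ± 0.43, adjusted p = 0.138). It had few reads, 17 to 52 in WT and 2 to 19 in DKO, with only 2 each in DKO 3 and DKO 5. *Krt19*, which is a duct keratin as well and also stands on the duct marker list, was at 3.42 ± 0.69 and 1.53 ± 0.59 CPM without overlap (−1.13 ± 0.28, adjusted p = 0.0744), and *Wnt4* was at 44.4 ± 1.3 and 30.8 ± 7.7 CPM without overlap (−0.53 ± 0.16, adjusted p = 0.129). DESeq2 called *Krt19* and *Wnt4* of this list as lower, and *Gpd2* of the thyroid hormone targets. *Ctsd* (cathepsin D) and *Xbp1* were at −0.44 and 0.52 (adjusted p = 0.219 and 0.387). In the clock genes, 16 of 17 were tested and edgeR called 0 (median 0.31, 1 higher and 0 lower unadjusted), with *Nfil3* at 0.996 (edgeR adjusted p = 0.124, DESeq2 adjusted p = 0.0127, the one clock gene that DESeq2 called), *Cry2* at 0.74 (adjusted p = 0.411), *Bhlhe40* at −0.64 (adjusted p = 0.583), and *Bhlhe41* and *Per3* at 0.25 and 0.97 (adjusted p = 0.881 and 0.650).

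**Figure D5:**
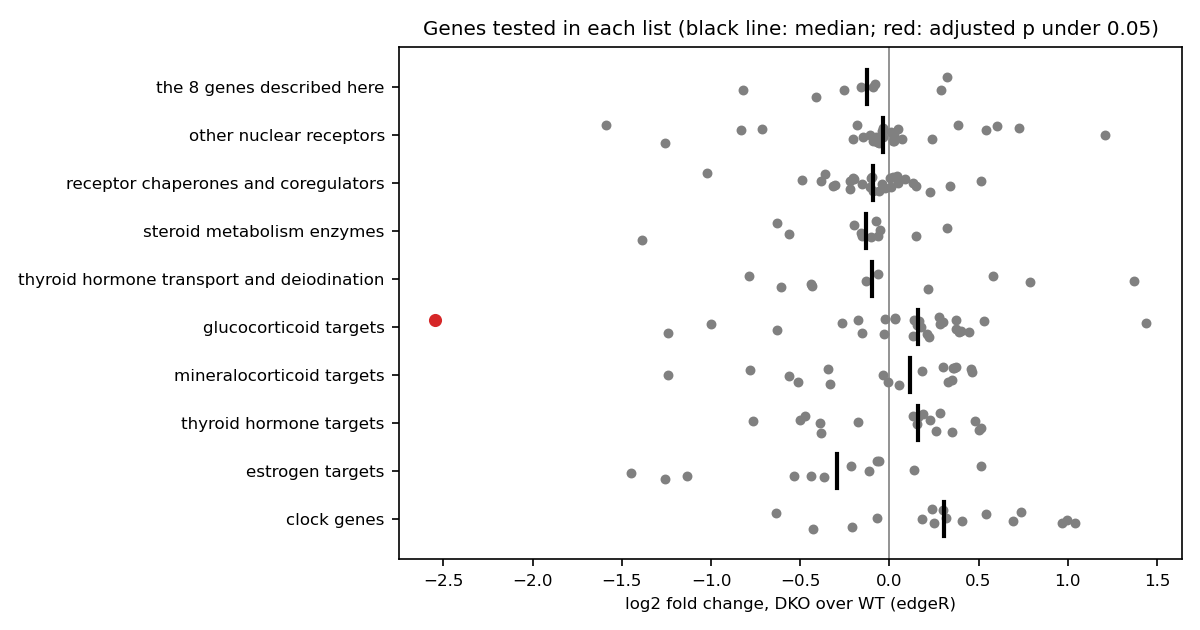
Log2 fold changes, DKO over WT, of the tested genes in each list of related genes, 1 point per gene, with the median as a black line. The single red point is *Lcn2* at −2.55, the one gene of these lists past the threshold, and the medians lie between −0.29 (estrogen targets) and 0.31 (clock genes).

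The genes most like each member were found as the 3 highest Pearson r of log2(CPM + 1) over the 9 libraries, among 11877 genes with a mean of at least 1 CPM. They describe these libraries only, which share depth, composition and genotype, and the third-ranked r was 0.883 or more for every member. *Esr1* was nearest to *Mme* (0.937), *Gnpda1* (0.935) and *Zbtb42* (0.933). The thyroid hormone receptors had different neighbors, *Mfsd1* (0.973), *Nrde2* (0.965) and *Prkacb* (0.958) for *Thra*, and *Mier3* (0.950), *Fscn1* (0.935) and *Hpgd* (0.935) for *Thrb*. *Nr3c1* was nearest to *Zfp658* (0.922), *Gm26724* (0.916) and *Manba* (0.904), and *Nr3c2* to *2010111I01Rik* (0.964), *Ptprd* (0.962) and *Dnase1l2* (0.961). For *Srd5a1* they were *Ivns1abp* (0.984), *2410004B18Rik* (0.946) and *Pafah1b1* (0.946). *Fkbp5* was nearest to *Tnks1bp1* (0.905), *Trap1* (0.885) and *Stat6* (0.883), and *Tsc22d3* to *Rccd1* (0.928), *Tapbp* (0.917) and *Thrsp* (0.916).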

How the data were processed

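RNA of 9 male SMGs was sequenced from 1 unstranded Nextera XT library each. The submitters' notes name STAR 2.5.2a, DESeq2, edgeR and limma, and the builds GRCm38, mm10 and GRCh38. The authors deposited raw read counts for 48733 rows, a filtered table of the same counts (17562 rows), and signal values, which are those counts divided by 1 TMM-scaled factor per library (CPM). All 158058 deposited signal values gave whole reads within 0.01 reads. The CPM printed here were recomputed from the unfiltered counts.

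DKO was compared with WT in R 4.3.3 by edgeR 4.0.16 (TMM, filterByExpr with a minimum count of 10 and a minimum total of 15, legacy quasi-likelihood fit, genotype as the single term), and p-values of the 13842 genes left by this filter were adjusted by Benjamini-Hochberg, with a threshold of 0.05. DESeq2 1.42.0, whose Wald test the study names, limma-voom (limma 3.58.1), other scalings, filters, left-out libraries and a replicate block were alternatives. Exact permutation tests covered every assignment of the 9 libraries to groups of 4 and 5, two-sided. The fits were tested on simulated data. Members, lists and tests were chosen with earlier results of these data known. Named from each list are genes past the threshold, the 3 of smallest unadjusted p and the 2 of highest CPM among the rest, apart from 2 genes that are not reported here. Gene models came from GENCODE M21, promoters from RefSeq. With Python 3.11.15, the permutation tests were computed with numpy 2.4.6, and those of the correlations over 6 libraries with scipy 1.17.1. No per-sample column was left unused.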

Additional observations from a re-analysis of the deposited data

How the results depend on the processing

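The count of 0 called among the 8 tested genes held under each of 19 alternatives. Several of these called 0 or few genes in the whole table, as given below, so there the count of 0 was fixed or nearly fixed in advance. Of 152 fold changes, 147 kept the sign of the reported value. The 5 that reversed were *Nr3c1* (log2 fold change 0.00753), *Thrb* (0.0192) and *Fkbp5* (0.17) with the 3 libraries of lowest *Arntl* left out, *Fkbp5* (0.0667) without WT 3, and *Tsc22d3* (−0.0142) with library size alone. With 1 library left out *Fkbp5* ranged from −0.283 to 0.0667. The number of genes called, 87, was 617 by DESeq2, 357 with library size alone, 347 without a filter on low counts, 13 in the authors' filtered table, 5 without the 20 most abundant genes, 4 by limma-voom, and 0 without the low-*Arntl* libraries (1195 at an unadjusted p under 0.05 by edgeR; an alternative added after seeing the data). With 1 library left out it ranged from 0 to 441, with 441 without DKO 4, 306 without WT 2, and at most 2 without any other library. Of the listed pathway and marker genes, 5 were called, and 42 by DESeq2, 32 without the filter, 27 with library size alone, 1 in the filtered table, 1 without the 20 most abundant genes, 0 by limma-voom and 0 without the low-*Arntl* libraries, with a range of 0 to 36 when 1 library was left out (36 without DKO 4, 25 without WT 2). The count of 1 member (*Srd5a1*) with an exact permutation p under 0.05 ranged from 0 to 1. Without WT 2 the one such member was *Thra* (exact permutation p = 0.0357). The correlation of *Nr3c1* with *Fkbp5* ranged from −0.156 to 0.306 when 1 library was left out (−0.0969 without WT 3 and −0.156 without DKO 3), that of *Nr3c1* with *Tsc22d3* from −0.232 to 0.194 (0.0990, 0.0514 and 0.194 without DKO 1, DKO 3 and DKO 4), and that of *Fkbp5* with *Tsc22d3* from 0.532 to 0.853, the last without DKO 3. The cause of these differences was not tested. Between genotypes the samples share only a replicate number, and no label says that it marks a pair. The sample titles also hold a number each, which was not used here. With each gene's genotype mean subtracted from log2(CPM + 1), same-numbered libraries correlated at 0.245, 0.369, 0.113 and 0.00635. On these deviations 2 of 4 WT and 3 of 4 DKO libraries correlated best with their own number. With the replicate block edgeR called 0 genes (2024 at an unadjusted p under 0.05) and 0 listed genes. Depth limits *Srd5a2* and, with 11 to 100 reads, *Esr1*.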
